A study of Mus musculus with 9 samples.

Results

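Eif3j1 and Eif3j2 are the mouse genes for the j subunit of eukaryotic translation initiation factor 3 (eIF3), and they were 2 of the 55291 genes in the deposited expected-count table, taken by their symbols. They were chosen by their values in the comparison of Ms4a6c knockout with wild-type mice, in which Eif3j1 was much lower, so the values of both genes in those mice are given as a description, with no test. The tissue was the main olfactory epithelium, the odor-sensing lining of the nose, and its RNA was sequenced from 9 mice aged 8 to 12 weeks. The 3 wild-type mice were C57BL/6, the 3 Ms4a6c knockout mice carried Ms4a6c-/- on C57BL/6, and the 3 mice of the Ms4a cluster knockout (hereafter cluster knockout) carried Ms4a cluster-/- on C57BL/6. The Ms4a6c line came from KOMP and was made by homologous recombination, and the cluster line lost all mouse Ms4a genes by CRISPR/Cas9, so Ms4a6c is deleted in both. The controls were described as littermates, but a single set of 3 wild-type mice served both knockouts, and which line they were born to was not given in the sources used here. Both comparisons with wild type therefore shared their control mice.

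eIF3 is a large protein complex that binds the small (40S) ribosomal subunit and helps to load mRNA and the initiator tRNA at the start of translation. The j subunit is held loosely by the rest of eIF3, sits near the decoding site and mRNA entry channel of the 40S subunit, and also takes part in recycling ribosomes after termination, together with the ATPase ABCE1. Olfactory sensory neurons are replaced throughout life and each makes large amounts of a single odorant receptor, and like other cells they need general translation factors.

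The annotated transcripts of Eif3j1 and Eif3j2 were nearly the same over the whole length of the shorter one. Eif3j1 (ENSMUSG00000027236.8) lies on the plus strand of chromosome 2 at chr2:122028546-122056598 of mouse build GRCm38, and its longer transcript has 8 exons and 5413 bases. Eif3j2 (ENSMUSG00000043424.10) lies on the minus strand of chromosome 18 at chr18:43475418-43477796 and is a single exon of 2379 bases, with no intron. Bases 78 to 2446 of the Eif3j1 transcript aligned with the whole Eif3j2 transcript, and 2365 of the 2369 aligned bases (99.83%) were identical. The 6 differences were 1 substitution in the 5′ UTR, 3 substitutions in the 3′ UTR, 6 bases added in Eif3j2 at the start of the coding sequence and 4 bases added in its 3′ UTR. Within the coding sequence there were 0 substitutions. The annotated proteins, of 261 and 263 amino acids, were identical at all 261 aligned positions, and the 2 further amino acids of Eif3j2 came from the added bases at its start.

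On the transcripts as annotated in GENCODE M21, only reads at one of those 6 places, or outside the shared stretch, can be assigned from their sequence. The authors counted on a later release of that annotation, which was not compared. Of all 150-base windows of the Eif3j2 transcript, 77.1% (1719 of 2230) occurred without a difference in Eif3j1, and 32.7% (1719 of 5264) of the Eif3j1 windows occurred in Eif3j2. The window is the length of 1 read of a pair. For windows of 300 bases, about the length of the sequenced inserts, the shares were 61% (1269 of 2080) of Eif3j2 windows and 24.8% (1269 of 5114) of Eif3j1 windows. Eif3j1 also had 77 bases before and 2967 bases after the shared stretch, 56.2% of its transcript, that Eif3j2 as annotated does not have. RSEM, the program the authors used for counting, divides a read that fits several transcripts between them by estimated probabilities, so the split between these genes is less certain than their sum. Expected counts hold no base calls, so whether the mice of all groups carried the same sequence of Eif3j1, Eif3j2 and their neighbors, beyond the C57BL/6 of the labels, was not tested.

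**Figure D1:**
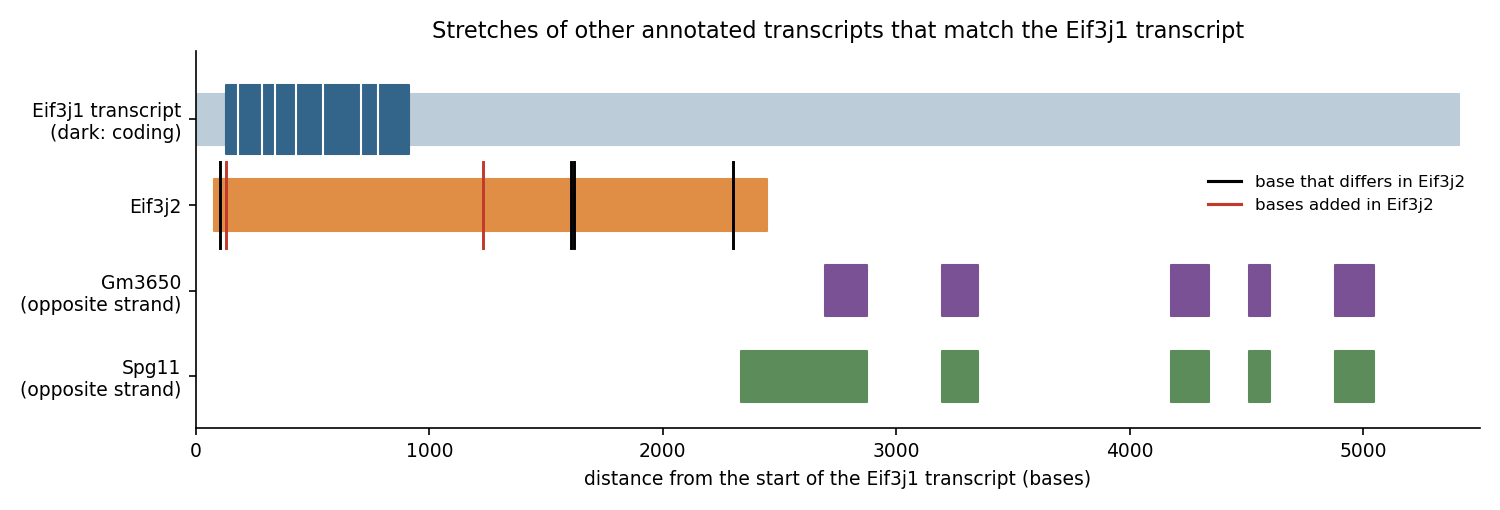
The horizontal axis gives the distance in bases from the start of the 5413-base Eif3j1 transcript, and each bar below it is a stretch of another annotated transcript that matches it. Dark blue is coding sequence, white lines are exon borders, black ticks are the 4 substituted bases and red ticks the 2 places with added bases in Eif3j2. Eif3j2 covers bases 78 to 2446, and Gm3650 and Spg11 cover later parts on the opposite strand.

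Other annotated genes also overlapped this sequence. Spg11, the neighbor of Eif3j1 on the other strand, which encodes the lysosome-related protein spatacsin, covered 1115 bases of the Eif3j1 transcript in 5 stretches. The pseudogene Gm3650, 248 bases beyond the end of Eif3j2 on chromosome 18 and on the other strand, matched Eif3j1 in 5 stretches of 755 bases in all, with at least 99.408% identity. The 5 stretches lay in the same order and within 1 base of the same spacing as in the Eif3j1 transcript. They ran up to its base 5049. The copy of Eif3j1 on chromosome 18 thus extended past the annotated end of Eif3j2, and reads of those stretches need not come from Eif3j1. The libraries were made with a directional kit, but whether strand was used in the counting was not given in the sources used here. Gm47314 and Gm27325, short annotated genes whose sequence lies within Eif3j1 and Eif3j2, were at 0 counts in all 9 mice.

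The libraries held between 13954591 and 21987174 expected counts a mouse. Ms4a6c was at 53.95, 90.34 and 81.53 counts in wild-type mice, at 0, 2.35 and 2 in Ms4a6c knockout mice and at 0 in all 3 cluster knockout mice, so the labels held for the targeted gene. All 5 markers of mature olfactory sensory neurons were expressed in every group, with Omp at 4860 CPM (counts relative to a library size scaled by edgeR's TMM method) in wild-type mice. Wild-type mouse 1 and cluster knockout mouse 2 stood apart from the rest: nasal gland markers summed to 79300 and 98800 CPM in these libraries and to between 117 and 3780 CPM in the other 7. Their TMM factors were 0.702 and 0.704, against 1.07 to 1.13 in the others. Scaling thus raised the values of these 2 libraries above those by plain library size, and lowered those of the others. Sexes were mixed in each group but not in equal numbers. The Y-linked Eif2s3y was at 54.4 to 58.9 CPM in 4 mice: wild-type 1, Ms4a6c knockout 2 and 3, and cluster knockout 3. It was at 7 counts or fewer in the others, and sex did not enter the fits. The mice are separate animals, and fewer cells of a type and less RNA per cell cannot be told apart in this bulk tissue.

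Eif3j1 was at 899.46, 813.07 and 795.44 expected counts in the 3 wild-type mice, at 351.52, 233.91 and 200.02 in the 3 Ms4a6c knockout mice and at 829.68, 609.5 and 855.53 in the 3 cluster knockout mice. Scaled by library, these were 63.9, 45.1 and 45.2 CPM in wild-type mice, 14.4, 14.5 and 12.7 CPM in Ms4a6c knockout mice and 41.6, 60.8 and 42.9 CPM in cluster knockout mice. Every Ms4a6c knockout mouse was below every mouse of the other groups, and the highest value of the wild-type and of the cluster knockout group came from the library rich in gland transcripts. The group means were 51.4 ± 10.8 CPM in wild-type mice, 48.4 ± 10.7 in the cluster knockout and 13.9 ± 0.999 in Ms4a6c knockout mice (SD, n = 3 each). The first pair in this order overlapped and did not differ beyond its spread.

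Eif3j2 went the other way in the Ms4a6c knockout. It was at 121.42, 156.69 and 150.52 expected counts in wild-type mice, at 642.69, 425.13 and 400.95 in Ms4a6c knockout mice and at 124.27, 113.07 and 178.32 in cluster knockout mice. Its scaled values were 8.6, 8.71 and 8.59 CPM in wild-type mice, 26.4, 26.4 and 25.5 CPM in Ms4a6c knockout mice and 6.21, 11.3 and 8.92 CPM in cluster knockout mice. Every Ms4a6c knockout mouse was above every other mouse, and the cluster knockout mice lay on both sides of the wild-type mice. The means were 26.1 ± 0.468 CPM in Ms4a6c knockout mice, 8.8 ± 2.53 in cluster knockout mice and 8.63 ± 0.0658 in wild-type mice (SD, n = 3 each), and the last pair in this order did not differ beyond its spread.

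In the fit of all 9 mice, Eif3j1 differed by -1.88 (standard error, SE, 0.18) on the log2 scale between Ms4a6c knockout and wild-type mice, 3.69-fold lower in the knockout. Eif3j2 had a log2 fold change of 1.59 (SE 0.17), 3.02-fold higher. Among the 23225 tested genes (a total of 10 counts or more over all mice), 388 had a lower log2 fold change than Eif3j1 and 490 a higher one than Eif3j2, and the median size of a change over all genes was 0.164 in either direction. In this comparison 0.435% of the tested genes had an adjusted p under 0.05, and 18.3% had groups that did not overlap. These values describe the contrast by which the genes were chosen. Against the cluster knockout, which also lacks Ms4a6c, the Ms4a6c knockout had log2 fold changes of -1.79 (SE 0.18) for Eif3j1 and 1.59 (SE 0.17) for Eif3j2.

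The comparison of the cluster knockout with wild type is the one in which these genes could be tested, and neither passed the test. The groups overlapped for both genes, while 9.86% of all tested genes had groups that did not. The log2 fold change of Eif3j1 was -0.09 (SE 0.17, adjusted p = 1 in the edgeR quasi-likelihood fit, Benjamini-Hochberg over all tested genes). That of Eif3j2 was 0.01 (SE 0.17, adjusted p = 1 by edgeR). The unadjusted p-values of this edgeR fit were 0.597 and 0.976, and 0.0258% of all tested genes had an adjusted p under 0.05. An interval of 2 standard errors on each side ran from -0.43 to 0.24 for Eif3j1 and from -0.34 to 0.35 for Eif3j2, which leaves room for changes of that size. The sign of the Eif3j1 value depended on wild-type mouse 1 and cluster knockout mouse 1, without which the log2 fold change was 0.09 and 0.01. Without the gland-rich libraries, wild-type mouse 1 and cluster knockout mouse 2, it was -0.1 for Eif3j1 and -0.19 for Eif3j2, again with no call.

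Without the same gland-rich libraries the description of the Ms4a6c knockout stayed close, at -1.7 for Eif3j1 and 1.59 for Eif3j2 on the log2 scale. Leaving out each mouse in turn gave between -1.97 and -1.7 for Eif3j1 and between 1.58 and 1.61 for Eif3j2.

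**Figure D2:**
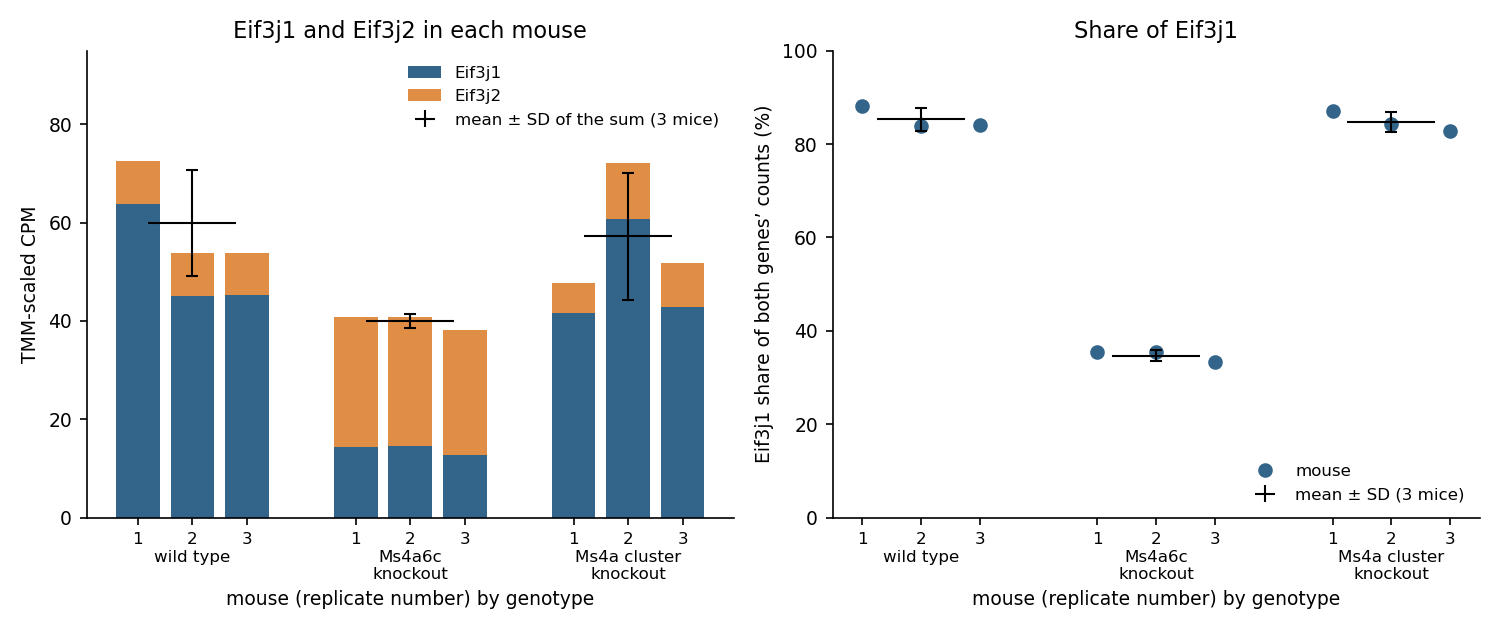
Left, stacked bars give the TMM-scaled CPM of Eif3j1 (blue) and Eif3j2 (orange) in each of the 9 mice, with the mean ± SD of their sum in black. Right, points give the percent of both genes' counts that were assigned to Eif3j1 in each mouse, with mean ± SD. The Ms4a6c knockout mice have shares of 33.3 to 35.5% and all other mice of 82.8 to 88.1%.

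The sum of the genes does not depend on how reads were divided between them. Sharing of reads with Spg11 and Gm3650 could still affect it and was not examined. The counts are not divided by transcript length (5413 bases for Eif3j1, 2379 for Eif3j2). The sum is therefore not a number of transcripts. It was 72.5, 53.8 and 53.8 CPM in wild-type mice, 40.8, 40.9 and 38.3 CPM in Ms4a6c knockout mice and 47.8, 72.1 and 51.8 CPM in cluster knockout mice. All Ms4a6c knockout mice were below all others, but the gap was much smaller than for Eif3j1 alone. The means were 60 ± 10.8 CPM in wild-type mice, 57.2 ± 13 in the cluster knockout and 40 ± 1.47 in Ms4a6c knockout mice (SD, n = 3 each). In CPM the sum of the Ms4a6c knockout was thus 0.666 of that of wild type. With CPM of the plain library size, which is not raised by the TMM factor in the gland-rich libraries, the means were 56.7 ± 5.02, 53.8 ± 3.06 and 44 ± 1.11 CPM in the same order and the ratio was 0.777. When the counts of both genes were added as a single gene in the edgeR fit, the Ms4a6c knockout had a log2 fold change of -0.59 (SE 0.16) against wild type. For the cluster knockout the same value was -0.08 (SE 0.16, adjusted p = 0.999 by edgeR), and the sum of CPM gave p = 0.5 in an exact two-sided permutation test over 3 mice against 3, which cannot go below 0.1.

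The larger difference was in the division of the counts. Eif3j1 held 88.1, 83.8 and 84.1% of the summed counts in wild-type mice, 35.4, 35.5 and 33.3% in Ms4a6c knockout mice and 87, 84.4 and 82.8% in cluster knockout mice. The share is free of library size and scaling. The highest share was that of wild-type mouse 1, a gland-rich library, and that of cluster knockout mouse 2, the other one, lay between the shares of the other cluster knockout mice. The means were 85.3 ± 2.39% in wild-type mice, 84.7 ± 2.13% in the cluster knockout and 34.7 ± 1.24% in Ms4a6c knockout mice (SD, n = 3 each), so the spread between mice of a genotype was small beside the difference of -50.6 points between the Ms4a6c knockout and wild type. For the cluster knockout against wild type an exact two-sided permutation test of the share gave p = 0.7. The 95% Wilson intervals of the single mice were 3.97 to 7.51 points wide, and they cover counting error only, not the uncertainty of assigning reads to the genes.

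Per length of transcript the genes changed places. In wild-type mice Eif3j1 was at 9.5 ± 2 CPM per kilobase and Eif3j2 at 3.63 ± 0.0277. In cluster knockout mice the levels were 8.95 ± 1.98 and 3.7 ± 1.06 CPM per kilobase, again with Eif3j1 higher. In Ms4a6c knockout mice Eif3j1 was at 2.57 ± 0.185 and Eif3j2 at 11 ± 0.197 CPM per kilobase (SD, n = 3 in each group), so the order was reversed in all 3 mice. The share of Eif3j1 in the counts per length was 72 ± 3.99% in wild-type, 71 ± 3.41% in cluster knockout and 19 ± 0.844% in Ms4a6c knockout mice. Between Ms4a6c knockout and wild-type means the difference was -6.93 CPM per kilobase for Eif3j1 and 7.34 for Eif3j2. On these annotated lengths the mean of their sum was therefore not lower in the Ms4a6c knockout, unlike that of their counts. The chromosome 18 copy extended past the annotated end of Eif3j2. A longer Eif3j2 transcript would lower its level per kilobase and change the shares and the sum, which was not tested.

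Gm3650, which continues the chromosome 18 copy on the other strand, was also highest in the Ms4a6c knockout. It was at 18.63, 9.04 and 15.08 expected counts in wild-type mice, at 72.76, 51.38 and 37.88 in Ms4a6c knockout mice and at 9.67, 5.39 and 10.32 in cluster knockout mice. The 3 Ms4a6c knockout mice were above all others. Its log2 fold change was 1.68 (SE 0.33, adjusted p = 0.0755 by edgeR) in the Ms4a6c knockout and -0.82 (SE 0.38, adjusted p = 0.968 by edgeR) in the cluster knockout, so neither passed the test over all genes. In the Ms4a6c knockout the adjusted p was 0.0201 without the gland-rich libraries, 0.0241 without wild-type mouse 1 alone, and between 0.00897 and 0.263 over all alternatives. Spg11, on the other strand of Eif3j1, was at 33.3, 30.8 and 31.9 CPM in wild-type mice, 28.6, 35.2 and 29.2 CPM in Ms4a6c knockout mice and 33.1, 32 and 36.9 CPM in cluster knockout mice. These groups overlapped, and the log2 fold change of Spg11 was -0.05 (SE 0.09, adjusted p = 0.904 by edgeR) in the Ms4a6c knockout. The stretches of Gm3650 lie at the same places of Eif3j1 as stretches of Spg11, so these genes also match each other. How reads were divided between Gm3650 and Spg11 was not examined, which limits what the counts of Gm3650 show.

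None of the other subunits of eIF3 passed the test in either knockout. Of the 12 genes Eif3a to Eif3i and Eif3k to Eif3m, all 12 were tested and 0 had an adjusted p under 0.05 in edgeR's test in either comparison. In both comparisons 0 had an unadjusted p under 0.05, where the share over all genes was 10.5% in the Ms4a6c knockout and 4.93% in the cluster knockout, and DESeq2 also called 0. Their log2 fold changes in the Ms4a6c knockout ran from -0.18 to 0.01 with a median of -0.09, against 0 for all genes, and in the cluster knockout from -0.06 to 0.11 with a median of 0.01. Eif3c, part of the core of the complex, had the highest mean level, at 261 ± 11 CPM in wild-type, 245 ± 9.87 in Ms4a6c knockout and 258 ± 3.92 in cluster knockout mice (SD, n = 3 each). Eif3a, its largest subunit and a scaffold, was at 218 ± 14.3, 205 ± 9.54 and 210 ± 16.5 CPM in the same order.

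The genes for the j subunit were also the least abundant of the 14 eIF3 genes per length. In wild-type mice the 12 other genes ranged from 30.5 CPM per kilobase for Eif3d, a cap-binding subunit, to 124 for Eif3h, and Eif3j1 and Eif3j2 ranked 13 and 14. In Ms4a6c knockout mice Eif3j2 ranked 13 and Eif3j1 ranked 14. The longest annotated transcript was used for each gene, so these levels depend on the annotation.

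**Figure D3:**
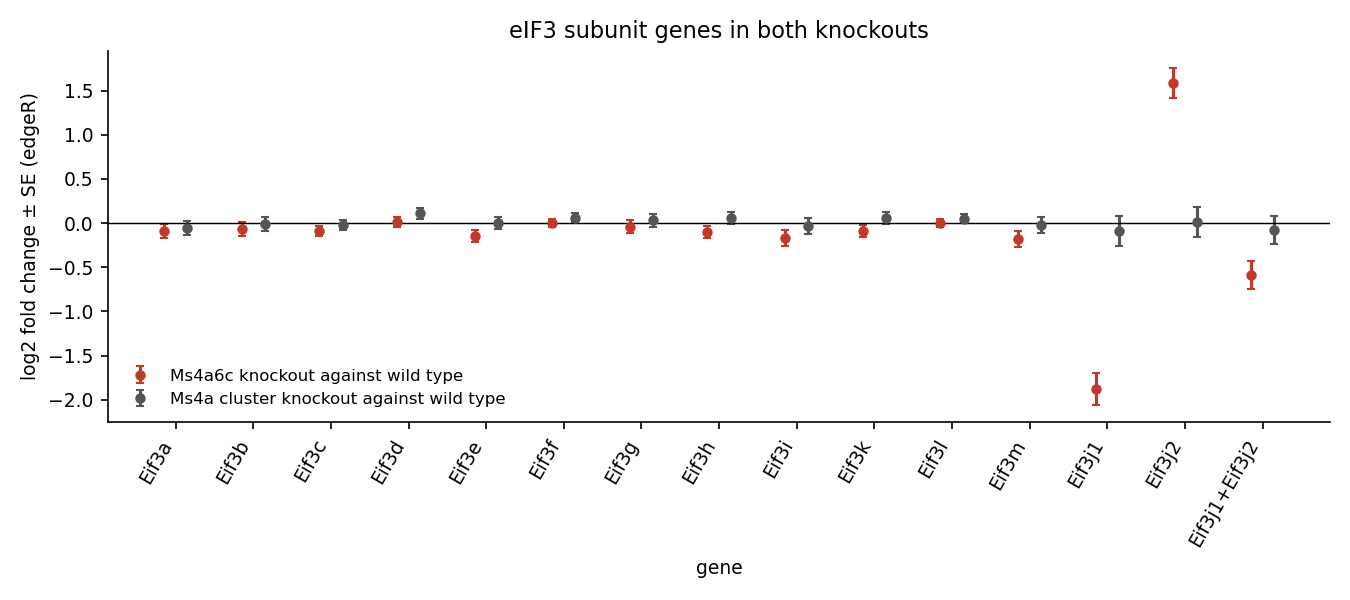
The vertical axis gives the log2 fold change against wild type with its standard error from edgeR for each eIF3 gene, in red for the Ms4a6c knockout and in gray for the cluster knockout. The 12 other subunit genes lie between -0.18 and 0.11 in both. In the Ms4a6c knockout Eif3j1 is at -1.88, Eif3j2 at 1.59 and their summed counts, not divided by length, at -0.59. These last values describe the contrast used to choose the genes.

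Genes that act with eIF3 at other steps of translation were counted in 4 lists. Their counts stand against 0.435% of all tested genes with an adjusted p under 0.05 and 10.5% with an unadjusted p under 0.05 in the Ms4a6c knockout, and against 0.0258% and 4.93% in the cluster knockout. Of the 9 genes of the preinitiation complex, 0 passed edgeR's test in either knockout, 2 and 0 had an unadjusted p under 0.05, and their median log2 fold change was -0.07 in the Ms4a6c knockout and -0.05 in the cluster knockout. Eif1, which guards start codon selection, was at 375 ± 15.9 CPM in wild-type and 370 ± 31.5 in Ms4a6c knockout mice (SD, n = 3 each). Eif2s3x, the X-linked gamma subunit of eIF2, was at 216 ± 40.2 and 179 ± 51.4 CPM, with an edgeR adjusted p of 0.718. Of the 14 cap-binding genes, 0 passed edgeR's test in either knockout and 1 and 0 had an unadjusted p under 0.05, with medians of -0.07 and 0.03. The most abundant were Eif4g2, a scaffold related to eIF4G, at 1420 ± 7.51 CPM in wild-type and 1360 ± 42.6 in Ms4a6c knockout mice, and the RNA helicase gene Eif4a2 at 445 ± 26.8 and 483 ± 19.8 CPM (SD, n = 3 each).

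The next list held genes of termination and of ribosome recycling, in which the j subunit also takes part. Of these 10 genes, 0 passed edgeR's test in either knockout, 2 and 1 had an unadjusted p under 0.05 (10.5% and 4.93% over all genes), and the medians were -0.1 and -0.01. Etf1, the factor that recognizes stop codons, was at 112 ± 8.95 CPM in wild-type, 92.2 ± 4.89 in Ms4a6c knockout and 96.7 ± 11.1 in cluster knockout mice (SD, n = 3 each), with edgeR adjusted p-values of 0.292 and 0.968. Abce1, the ATPase that splits ribosomes and binds near the j subunit, was at 91.4 ± 8.52, 74.5 ± 3.87 and 83.4 ± 16.9 CPM in the same order. Its log2 fold change in the Ms4a6c knockout was -0.29 (SE 0.12, unadjusted p = 0.0401 and adjusted p = 0.449 in edgeR).

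The integrated stress response lowers initiation through phosphorylation of eIF2 and raises the transcription factor ATF4. Of its 18 listed genes, 1 (5.56%) passed the test in the Ms4a6c knockout and 0 in the cluster knockout, against 0.435% and 0.0258% of all genes. An unadjusted p under 0.05 in edgeR was reached by 2 and 3 of the 18, against 10.5% and 4.93% of all genes, and the medians were -0.04 and 0.03. Over these 4 lists DESeq2 also called 1 gene in the Ms4a6c knockout and 0 in the cluster knockout. Among all 23225 tested genes DESeq2 called 343 and 18. Trib3, a pseudokinase gene and known target of ATF4, was at 15.7 ± 1.23 CPM in wild-type, 39.4 ± 10.7 in Ms4a6c knockout and 20.5 ± 2.9 in cluster knockout mice (SD, n = 3 each). It rose in the Ms4a6c knockout by 1.32 on the log2 scale (SE 0.19, adjusted p = 0.0123 by edgeR). This call was lost without wild-type mouse 2 (edgeR adjusted p = 0.0602), wild-type mouse 3 (0.0848) or Ms4a6c knockout mouse 3 (0.0691). Other listed genes went in both directions in the Ms4a6c knockout. The log2 fold change was 0.33 (SE 0.12) for Ddit3 and 0.09 (SE 0.2) for Sesn2. It was -0.19 (SE 0.59) for Asns and -1.52 (SE 0.82) for Chac1, and none of these passed edgeR's test. Atf4 itself was at 215 ± 27.6 and 218 ± 3.36 CPM in wild-type and Ms4a6c knockout mice, and Atf5, a related factor abundant in this tissue, at 1170 ± 137 and 1220 ± 36.7 CPM (SD, n = 3 each).

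Position along the chromosome was not used to choose the genes, so their neighbors were counted next, without a test of whether neighbors differ from other genes. Beside Eif3j1 on chromosome 2, among the 40 nearest tested genes (20 to either side, a span of 3965 kb), 5 (12.5%) had an adjusted p under 0.05 in edgeR's test of the Ms4a6c knockout, against 0.435% of all tested genes. An unadjusted p under 0.05 was reached by 21 of the 40 (52.5%) and by 10.5% of all genes, and the median size of their log2 fold changes was 0.388 against 0.164. The changes went in both directions, 3 higher and 2 lower. In the cluster knockout 0 of the same 40 genes passed in edgeR or DESeq2, 1 (2.5%) had an unadjusted p under 0.05 and the median size was 0.0787 against 0.126 over all genes.

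Sqor, a mitochondrial sulfide-oxidizing enzyme gene 737 kb from Eif3j1, rose from 20.6 to 34.4 CPM, which was 0.74 on the log2 scale (SE 0.07, adjusted p = 0.000541 by edgeR). Ppip5k1, an inositol pyrophosphate kinase gene, rose from 57.9 to 85.5 CPM, which was 0.56 on the log2 scale (SE 0.07, adjusted p = 0.0039 by edgeR). Casc4 fell from 68.3 to 53 CPM, which was -0.37 on the log2 scale (SE 0.06, adjusted p = 0.0314 by edgeR). The last 2 of the 5 are themselves paralogous copies of a splicing factor gene. Mfap1a had a log2 fold change of 0.41 (SE 0.07) and Mfap1b one of -0.49 (SE 0.08), each with an edgeR adjusted p of 0.0314. How far reads of these paralogs were divided between them was not examined. The number of calls beside Eif3j1 was 2 with the 2 genotypes alone or the replicate block and 2 to 4 with 1 mouse left out, and Sqor and Ppip5k1 kept their calls in every alternative fit. Without the gland-rich libraries it was 7, while the calls over all genes rose from 101 to 350.

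The genes closest to Eif3j1 did not pass the test. Ctdspl2 was at 26.4 CPM in wild-type and 23.3 in Ms4a6c knockout mice (edgeR adjusted p = 0.458), and Mageb3 was under 1 CPM in every group. B2m, the light chain of MHC class I, was at 114 and 81 CPM, which was -0.5 on the log2 scale (SE 0.11, adjusted p = 0.12 by edgeR), and passed with no filter on low counts (0.0397) and in DESeq2 (0.00382). With 50 genes on each side, 10 of 100 changed, and the 5 beyond the nearest 40 were Ganc and Adal, which were higher, and Haus2, Lcmt2 and Ciao1, which were lower.

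Beside Eif3j2 on chromosome 18, 0 of the 40 nearest tested genes had an adjusted p under 0.05 in edgeR's test in either knockout. In the Ms4a6c knockout 4 of them (10%) had an unadjusted p under 0.05, close to the 10.5% of all genes, and the median size of a change was 0.186. In the cluster knockout the count was also 4 (10%), against 4.93% of all genes, and DESeq2 called 0. Besides Gm3650, the nearest genes were Dpysl3, a neuronal cytoskeleton gene at 211 CPM in wild-type and 185 in Ms4a6c knockout mice, the noncoding AC156546.1 at 9.14 and 9.26 CPM, and Jakmip2 at 28.3 and 27.1 CPM. DESeq2 called 1 of the 40 in the Ms4a6c knockout, Gm3650, against 343 of all 23225 tested genes. With 50 genes on each side edgeR called 1 of 100 in the Ms4a6c knockout, Lox, which encodes lysyl oxidase and fell from 45 to 30.2 CPM.

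**Figure D4:**
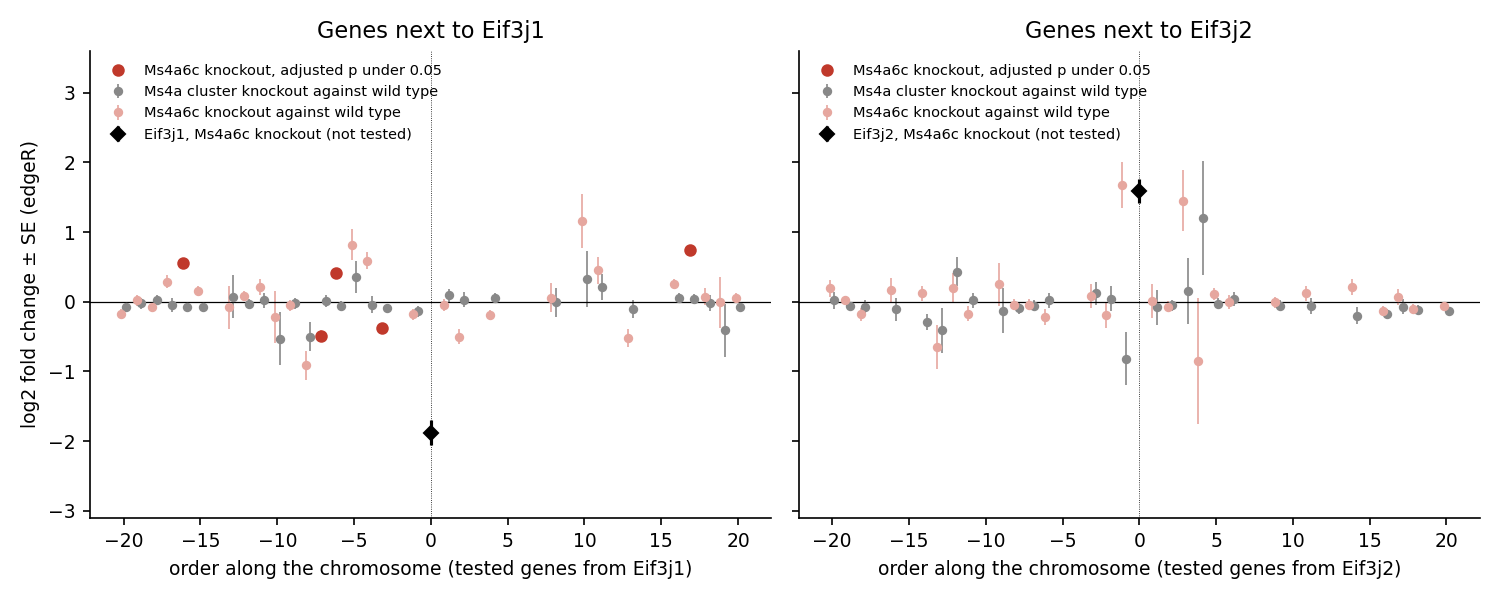
The horizontal axis gives the order of tested genes along the chromosome on each side of Eif3j1 (left) and Eif3j2 (right), and the vertical axis the log2 fold change against wild type with its standard error from edgeR. The 30 and 28 neighbors with a mean of at least 1 CPM are drawn, pale red for the Ms4a6c knockout, gray for the cluster knockout and dark red for an adjusted p under 0.05, which 5 genes beside Eif3j1 and 0 beside Eif3j2 reached in the Ms4a6c knockout.

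The genes whose profiles over the 9 mice were most like that of each member were found by the root mean square difference of log2(CPM + 1) values, each centered on its mean, over 16536 genes with a mean of at least 1 CPM. All profiles come from the same 9 libraries. The closest to Eif3j1 were Stxbp6 (0.199), which encodes a SNARE-binding protein, Ahcy (0.228), the S-adenosylhomocysteine hydrolase gene, Capza1 (0.292), an actin capping protein gene, Gm43534 (0.308) and Scel (0.325). Ahcy, also on chromosome 2, was at 37.5 CPM in wild-type, 12 in Ms4a6c knockout and 36.8 in cluster knockout mice. The profiles nearest to the mirror image of Eif3j1 were those of Olfr1314 (0.224), Lbp (0.225), Gm13835 (0.257), Styk1 (0.283) and Gm42743 (0.294).

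The profiles closest to Eif3j2 were those of Gm15387 (0.151), Egln3 (0.159), a HIF prolyl hydroxylase gene, Olfr1314 (0.256), Lbp (0.262), the lipopolysaccharide-binding protein gene, and Slc16a1 (0.285), a lactate transporter gene. Lbp was at 30.3 CPM in wild-type, 89.8 in Ms4a6c knockout and 31.3 in cluster knockout mice. Nearest to the mirror image of Eif3j2 were Ahcy (0.174), Capza1 (0.206), Scel (0.264), Cd59a (0.282) and Acp1 (0.289). The profile of Eif3j1 lay 0.365 from the mirror image of that of Eif3j2. The genes named above were picked as the closest of 16536, so nothing is read from their smaller distances. The distance also depends on the size of a profile, which was 0.852 for Eif3j1 and 0.728 for Eif3j2 (root mean square).

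Cell type markers were compared beside these values, and their part in them was not tested. Over all tested genes the Ms4a6c knockout had 0.435% with an adjusted and 10.5% with an unadjusted p under 0.05. Of the 5 markers of mature olfactory sensory neurons, 1 changed in the Ms4a6c knockout: Gng13, a G protein gamma subunit gene, fell from 359 ± 11.8 to 193 ± 12.8 CPM (SD, n = 3 each; log2 fold change -0.89, SE 0.09, edgeR adjusted p = 0.00121), and the summed level of the 5 genes was 8960 to 10300 CPM in wild-type and 9550 to 9980 in Ms4a6c knockout mice. The 4 markers of sustentacular cells, the supporting cells of the epithelium, summed to 18500 to 20100 CPM in Ms4a6c knockout, 14700 to 15100 in wild-type and 14300 to 16400 in cluster knockout mice, with 0 of 4 passing edgeR's test and 2 at an unadjusted p under 0.05. The 2 blood markers summed to 481 to 1350 CPM in Ms4a6c knockout and 394 to 546 in wild-type mice, and 0 of 2 passed, both at an unadjusted p under 0.05 in edgeR. The 3 macrophage markers summed to 57.9 to 62.5 CPM in Ms4a6c knockout and 65.2 to 83.6 in wild-type mice, and 0 of 3 passed, 1 of them at an unadjusted p under 0.05 in edgeR. In the other 5 lists, of immature neurons, globose and horizontal basal cells, glands and ciliated cells, 0 genes passed in the Ms4a6c knockout, with 0 at an unadjusted p under 0.05 in edgeR. No measured marker was at 0 in all mice of a group, and in the cluster knockout 0 markers passed edgeR's test and 2 had an unadjusted p under 0.05, where the shares over all genes were 0.0258% and 4.93%.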

How the data were processed

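Poly-A RNA of 9 mice was read as paired ends of 150 bases from directional libraries. The authors aligned the reads with STAR 2.6.1, quantified genes with RSEM 1.3.1 on GRCm38 (mm10), and deposited expected counts of 55291 genes without normalization. These are estimated counts in which reads shared by near-identical genes are divided. The expected counts were rounded, and the 23225 genes with at least 10 counts over the 9 mice entered 1 quasi-likelihood fit of all mice in edgeR 4.0.16 (R 4.3.3) after TMM scaling, with Benjamini-Hochberg adjustment and a threshold of 0.05. A standard error is the log2 change over the root of its F statistic. Genotypes and replicate numbers came from the labels. The study used DESeq2; here DESeq2 1.42.0 was an alternative. Scaling, filters, the genotypes entered, a replicate block, each mouse left out, lengths and 50 neighbors on each side were also varied, and leaving out the gland-rich libraries was added after the data were examined.

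Positions and transcripts were taken from GENCODE M21, also on GRCm38, and transcript identifiers linked 99.6% of the genes to it. The paper names a later GENCODE release for the counts. Whether the transcripts compared here differ in that release was not examined. The transcripts' base sequences are not reported here. Transcripts were compared with blastn 2.17.0 and Biopython 1.88 (Python 3.11). Sums and shares were compared by exact permutation.

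The 2 genes, the gene lists and the tests were chosen with earlier results of these data known. Genes were named by rule: both members, Ms4a6c, near-identical genes, in each list the called genes and the 2 with the highest mean level, the 2 nearest genes on each side and any called among the 20 on each side, and the 5 closest profiles. Abce1, Eif3d, Eif3h, Eif2s3y, Omp, Ddit3, Sesn2, Asns and Chac1, and the genes called beyond the nearest 40, were named after their values were seen. The procedure was tested on simulated counts of the 23225 genes for the Ms4a6c knockout comparison. Changes were planted only in genes with a mean of at least 20 counts, without sharing of reads between near-identical genes. The procedure called 93 of 100 genes with a 4-fold change, 64 of 100 with a 2-fold change and 6 unchanged genes.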

Additional observations from a re-analysis of the deposited data

How the results depend on the processing

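The description of the Ms4a6c knockout kept its direction in every alternative run: the share of Eif3j1 changed by -53 to -49.3 points and the summed counts were lower throughout. None of the alternatives for the sum divided the counts by transcript length. Per annotated length the mean of the sum was not lower in the Ms4a6c knockout, and other lengths of Eif3j2 were not tried. Of 508 alternative values over all results, 431 stayed on their side, 21 turned direction, 23 lost and 6 gained a call, and 27 counts or values moved. Against wild type, the cluster knockout gave Eif3j1 between -0.28 and 0.09 on the log2 scale and Eif3j2 between -0.19 and 0.21 with 1 mouse left out, and Eif3j2 was at 0 (just below) in DESeq2 and with the replicate block, and at -0.19 without the gland-rich libraries. The difference in the sum was -2.82 CPM and ran from -10.2 to 3.41 CPM with 1 mouse left out (1.9 without cluster knockout mouse 1, 3.41 without wild-type mouse 1). That in the share was -0.653 points and ran from -1.79 to 0.727 (0.727 without wild-type mouse 1, 0.317 without cluster knockout mouse 3), and it was 0.897 without the gland-rich libraries. None of these passed a test, so their sign carries no call.

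The replicate numbers did not pair the mice: deviations of same-numbered mice correlated at -0.62, -0.41 and -0.15 between cluster knockout and wild type and at -0.04, -0.11 and 0.08 between Ms4a6c knockout and wild type, across 16537 genes. With the replicate block, the calls over all genes were 2 in place of 6 in the cluster knockout and 71 in place of 101 in the Ms4a6c knockout, and 2 in place of 5 beside Eif3j1. DESeq2 gave 18 and 343 over all genes, 9 beside Eif3j1 and 1 beside Eif3j2 in the Ms4a6c knockout. No filter gave 182 over all genes and 1 beside Eif3j2 in that comparison, and leaving out the gland-rich libraries gave 350 and 1. The 2 genotypes alone gave 2 beside Eif3j1, and 50 genes on each side gave 10 beside Eif3j1 and 1 beside Eif3j2. With 1 mouse left out, the calls over all genes ran from 3 to 7 in the cluster knockout (3 without wild-type mouse 2 or 3) and from 59 to 143 in the Ms4a6c knockout (59, 60 and 64 without wild-type mouse 2, wild-type mouse 3 and Ms4a6c knockout mouse 3). In the Ms4a6c knockout those beside Eif3j1 ran from 2 to 4 (2 without wild-type mouse 2 or Ms4a6c knockout mouse 1 or 3, 3 without wild-type mouse 3 or Ms4a6c knockout mouse 2), those beside Eif3j2 from 0 to 1 (1 without wild-type mouse 1), and those among other translation factors from 0 to 1. The causes of these shifts were not tested.

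Among single genes in the cluster knockout, Gng13 was at -0.04 to 0.13 with 1 mouse left out (-0.04 without cluster knockout mouse 1), Ppip5k1 at 0.02 and B2m at -0.03 without the gland-rich libraries, Mfap1b at -0.06 to 0.1 and B2m at -0.07 to 0.11 with 1 mouse left out. Spg11 was at 0.01 in the Ms4a6c knockout without Ms4a6c knockout mouse 1. Mfap1a, Mfap1b and Casc4 lost their calls with the replicate block, in the fit of 2 genotypes and in 6, 4 and 4 of the fits with 1 mouse left out. The members had at least 113.07 expected counts in every mouse, and Gm3650 had as few as 5.39. Fewer reads than these counts tell the members apart, since 77.1% of the 150-base windows of Eif3j2 also occur in Eif3j1.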
